A study of Saccharomyces cerevisiae with 6 samples.

Results

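The genes described here encode ribosome biogenesis factors of yeast, taken as every gene of the count table whose name is UTP, NOP, RRP, NOC, NSA, RPF or RLP followed by a number. The rule uses names alone, and it finds 62 of the 7126 genes in the table. All 62 passed the filter on low counts, with between 294 and 25725 counts in a sample. RNA was sequenced from 3 colonies of a strain with *kcs1*-S537A,S646A and 3 colonies of a strain with wild-type *KCS1* (WT), all harvested after 20 h in low-nitrogen medium as the sample labels give it. Both strains are diploids of the filamentous Σ1278b background that lack *KCS1* on both chromosomes and carry *KCS1* or its mutant allele on pRS416, a low-copy plasmid selected through *URA3*. In the mutant allele, 2 of the serines that the kinase Snf1 phosphorylates in the inositol polyphosphate kinase Kcs1 are replaced by alanine. The question was how loss of these sites affects transcript levels. Each allele was represented by 1 strain, so an effect of the allele cannot be told apart from other differences between the strains.

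Ribosomes are built in the nucleolus from a long precursor RNA, which is folded, modified and cut while ribosomal proteins bind to it. The UTP complexes and the U3 small nucleolar ribonucleoprotein (snoRNP) assemble on the precursor first and form the 90S particle, from which the small (40S) subunit is released. A separate set of factors matures the large (60S) subunit, and the RNA exosome trims and degrades precursor ends and spacers. In yeast, genes for these factors are transcribed together in proportion to growth rate and are repressed when nutrients run short. Many have 2 short promoter elements in common, PAC and RRPE.

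In the mutant, 4 of the 62 factors had lower transcript levels and none had a higher level at an adjusted *p*-value under 0.05 in edgeR's quasi-likelihood test. Over all 6083 genes tested, 4.67% were called lower and 0.986% higher. The 4 are *NOP13*, *NOP15*, *RLP7* and *NOP2*. All act on the large subunit, and all lie on chromosome XIV, of which 57.2% of the 407 genes tested were called lower (233 genes). No other factor lies on chromosome XIV, and none lies on chromosome VI. The remaining 58 factors had log2 fold changes from -0.12 to 0.29, none past the threshold.

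Total counts were between 20529351 and 22701020 in the mutant samples and between 17950923 and 20822332 in the WT samples. Values are CPM (counts of a gene as a share of all counts in the sample, set to the same total) scaled by TMM factors, and levels of different genes are compared as CPM per kilobase. CPM is a share of a sample's RNA, so a change in total RNA per cell would not be seen. Genes of chromosome XIV had median log2 differences from the WT mean between -0.55 and -0.52 in the 3 mutant samples. Genes of chromosome VI had a median of -0.98 in mutant replicate 1. The levels of 12 haploid-specific genes, which diploid cells repress, were between 0.983 and 57.6 CPM in the 6 samples.

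The promoters of the factors were searched for PAC (GATGAG) and RRPE (AAAATTTT) on both strands, in the 250 bases before and the 50 bases after the start of the coding sequence. PAC was found in 52 of the 62 promoters (83.9%) and RRPE in 40 (64.5%), against 19.9% and 9.2% of the 5735 protein-coding genes tested. Both were found in 56.5% of the factors and in 4.5% of all. The 4 genes of chromosome XIV are shown because they were the ones called, *NOP7* as a large-subunit factor of another chromosome with the same elements, and *UTP15* as the factor with the highest log2 fold change. The stretches are from the RefSeq R64 sequence of the reference strain, on which all 62 factors have the coordinates given in the files. Capitals mark PAC or its complement CTCATC, and RRPE. Each stretch is written in the direction of transcription and ends upstream of the start codon.
NOP13: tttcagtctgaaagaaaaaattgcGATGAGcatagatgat
NOP15: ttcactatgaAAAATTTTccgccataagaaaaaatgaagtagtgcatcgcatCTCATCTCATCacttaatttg
RLP7: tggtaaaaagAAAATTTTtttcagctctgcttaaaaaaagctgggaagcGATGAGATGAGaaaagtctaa
NOP2: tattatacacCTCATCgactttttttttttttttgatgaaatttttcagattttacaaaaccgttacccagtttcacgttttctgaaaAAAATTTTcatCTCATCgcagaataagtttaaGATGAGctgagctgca
NOP7: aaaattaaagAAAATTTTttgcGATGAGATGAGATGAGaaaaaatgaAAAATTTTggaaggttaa
UTP15: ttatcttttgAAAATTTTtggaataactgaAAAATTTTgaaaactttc

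The stretches lie at chrXIV:308696-308735 (minus strand) for *NOP13*, chrXIV:418578-418650 (minus) for *NOP15*, chrXIV:627222-627291 (minus) for *RLP7*, chrXIV:510310-510445 (plus) for *NOP2*, chrVII:695266-695330 (plus) for *NOP7* and chrXIII:453872-453919 (plus) for *UTP15*. The called genes and *NOP7* therefore have PAC in common, and *NOP15*, *RLP7*, *NOP2* and *NOP7* also have RRPE, whereas the window of *UTP15* holds RRPE alone, at a pair of positions. Among the 58 factors outside chromosome XIV, the median log2 fold change was 0.11 for the 32 with both elements, 0.094 for the 16 with PAC alone, 0.051 for the 5 with RRPE alone and 0.079 for the 5 with neither. Single genes ran from -0.071 to 0.21 in the first of these groups and from -0.12 to 0.24 in the second, and the difference between the groups was not tested. Of the 132 ribosomal protein genes, 11.4% had PAC and 6.1% RRPE.

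*NOP13* encodes an RNA-binding protein found in nucleolar precursors of the large subunit. It lies on the minus strand of chromosome XIV from 307401 to 308612. Its level was 125.3, 113.0 and 117.8 CPM in mutant replicates 1, 2 and 3, and 187.3, 186.4 and 189.7 CPM in the WT replicates. The groups lie far apart, and the difference came to -0.66 ± 0.075 on the log2 scale (estimate ± standard error, adjusted *p* = 0.0041 from edgeR). Of its length, 44.5% overlaps another annotated gene on the other strand that received 0 counts in every sample. How reads in such overlaps were assigned is not given in the sources used here.

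*NOP15* encodes an RNA-binding protein needed to process the internal spacer next to the 25S RNA (chromosome XIV, minus strand, 417826 to 418488). It had 349.2, 286.9 and 313.3 CPM in the mutant and 502.9, 488.8 and 489.2 CPM in WT. The mutant samples were again all below the WT samples, by -0.64 ± 0.10 on the log2 scale (adjusted *p* = 0.010 from edgeR). *RLP7*, a relative of the ribosomal protein gene *RPL7* whose product also acts at this spacer (chromosome XIV, minus strand, 626174 to 627142), had 592.7, 481.3 and 546.9 CPM in the mutant and 774.1, 748.1 and 787.9 CPM in WT. No mutant sample reached the lowest WT sample, at -0.51 ± 0.11 (adjusted *p* = 0.033 from edgeR). *NOP2* encodes a methyltransferase of the 25S RNA (chromosome XIV, plus strand, 510540 to 512396). Its level was 653.8, 565.3 and 677.2 CPM in the mutant and 875.5, 843.4 and 954.3 CPM in WT, or -0.50 ± 0.11 on the log2 scale (adjusted *p* = 0.044 from edgeR), without overlap.

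**Figure D1:**
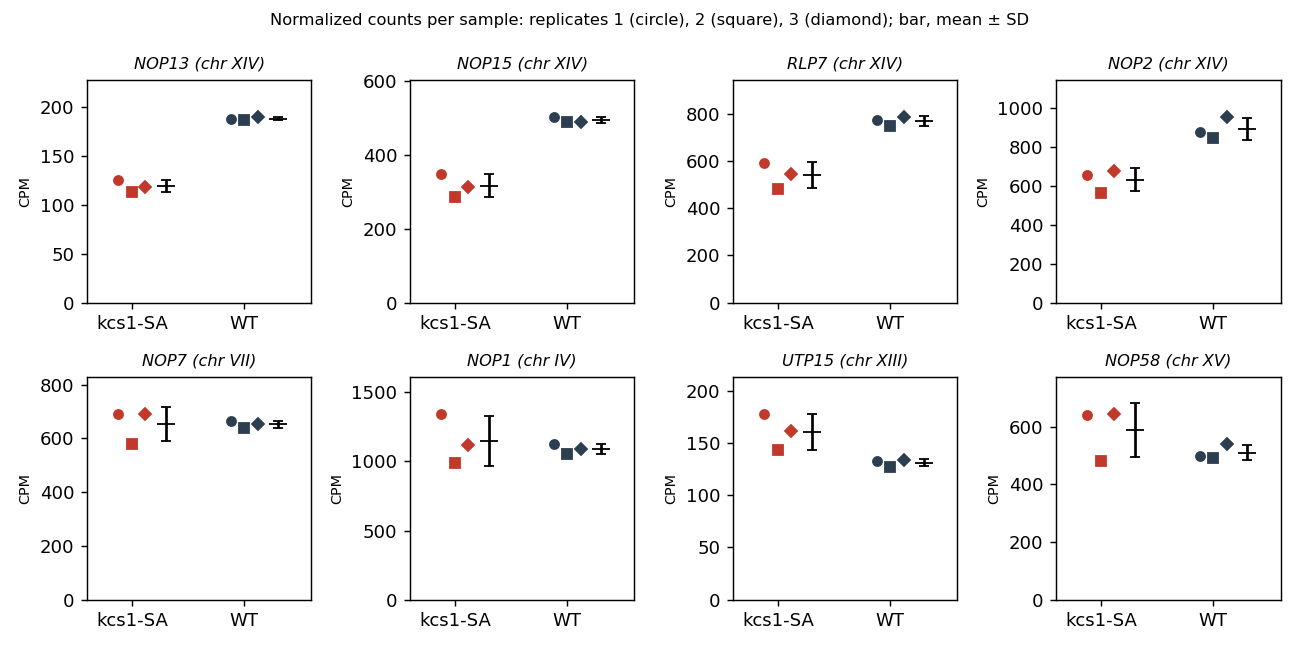
CPM (vertical axis, from 0) in each of the 3 mutant (kcs1-SA, left, red) and 3 WT samples (right, dark) for 8 factors, with circle, square and diamond for replicates 1, 2 and 3 and a bar for the mean ± SD. The 4 genes of chromosome XIV have all mutant samples below all WT samples, whereas *NOP7*, *NOP1* and *NOP58* overlap and *UTP15* has all mutant samples above WT.

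The 4 genes lay between the 25.6 and 57 percentiles of the genes on their chromosome. The median log2 fold change of all chromosome XIV genes was -0.52, and *NOP13* and *NOP15* lay 0.14 and 0.12 below it (differences of -0.14 and -0.12), while *RLP7* and *NOP2* lay 0.014 and 0.029 above it. With an offset per sample for chromosomes XIV and VI, the log2 fold changes were -0.13 for *NOP13* (adjusted *p* = 0.42 from edgeR), -0.11 for *NOP15* (0.62), 0.024 for *RLP7* (0.94) and 0.040 for *NOP2* (0.88). With this offset none of the 62 factors was called, and over all 6083 genes 19 were called, against 344 without it. The offset is the chromosome's median in these same samples, so genes near that median could hardly be called. The fit therefore cannot decide why the 4 genes were lower. *NOP13* was called with any sample left out. *NOP15* was not called without any 1 of the WT samples, although its log2 fold change stayed between -0.65 and -0.63 (adjusted *p* between 0.057 and 0.069). *RLP7* and *NOP2* were not called without any 1 of the WT samples or without mutant replicate 3. Their log2 fold changes in these fits were between -0.53 and -0.49 for *RLP7* (adjusted *p* between 0.075 and 0.16) and between -0.55 and -0.44 for *NOP2* (0.063 to 0.21). Each of these fits has fewer samples, and the size of the differences changed little.

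**Figure D2:**
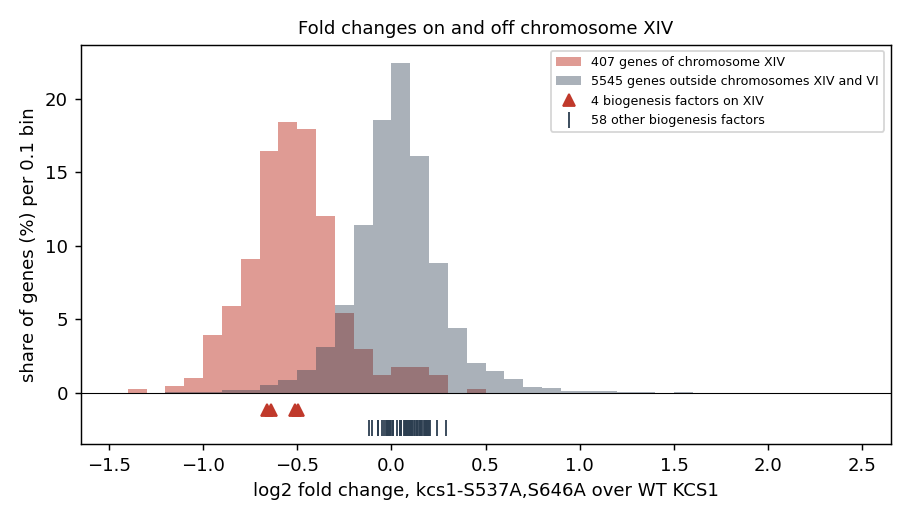
Distribution of log2 fold changes (mutant over WT, horizontal axis) as the share of genes in each bin of 0.1 (vertical axis, %) for the 407 genes of chromosome XIV (red) and the 5545 genes outside chromosomes XIV and VI (grey). Triangles mark the 4 factors on chromosome XIV, which fall inside the red distribution around its median of -0.52, and ticks mark the 58 other factors, from -0.12 to 0.29.

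As the 4 genes all serve the large subunit, their partners on other chromosomes were compared. For the other 17 large-subunit factors the median was 0.068 on the log2 scale, which was -0.00065 with library totals in place of TMM, -0.044 without mutant replicate 1 (7 of 17 above 0) and 0.11 without mutant replicate 2, and the genes ranged from -0.10 to 0.24. None was called, and 12 were above 0. *NOP7*, whose product binds Erb1 and Ytm1 in early large-subunit precursors, had 689.2, 578.7 and 691.3 CPM in the mutant and 666.2, 640.6 and 652.3 CPM in WT. The mutant samples lay on both sides of the WT samples, and the log2 fold change was 0.00 with a 95% interval from -0.24 to 0.24. *NOP16*, another early factor, had the highest log2 fold change of the group, 0.24, with 443.9, 365.8 and 333.6 CPM in the mutant against 333.4, 336.8 and 297.8 CPM in WT (adjusted *p* = 0.34 from edgeR). *NOP53*, which hands late precursors to the exosome, had 335.6, 225.3 and 275.1 CPM in the mutant against 269.7, 286.1 and 275.0 CPM in WT. *NSA1* and *NOP8*, both of early large-subunit precursors, were the only ones of the 17 with all mutant samples above WT. That is 11.8% of the 17, close to the 12.9% of genes outside chromosomes XIV and VI that did so. *NSA1* had 197.8, 204.6 and 191.3 CPM in the mutant against 187.5, 179.3 and 177.5 CPM in WT, and *NOP8* had 132.6, 128.6 and 134.6 CPM in the mutant against 114.5, 124.5 and 117.0 CPM in WT. Their log2 fold changes were 0.13 and 0.15 (adjusted *p* = 0.41 and 0.28). The lowest of the 17 was *NOP12*, which is needed for 25S RNA processing, at -0.10 (adjusted *p* = 0.65). *RRP17*, which encodes a 5′ to 3′ exonuclease, had the lowest level of all 62 genes, 28.4 CPM per kilobase in the mutant and 25.3 in WT, but 79.8% of its length overlaps another annotated gene on the other strand.

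**Figure D3:**
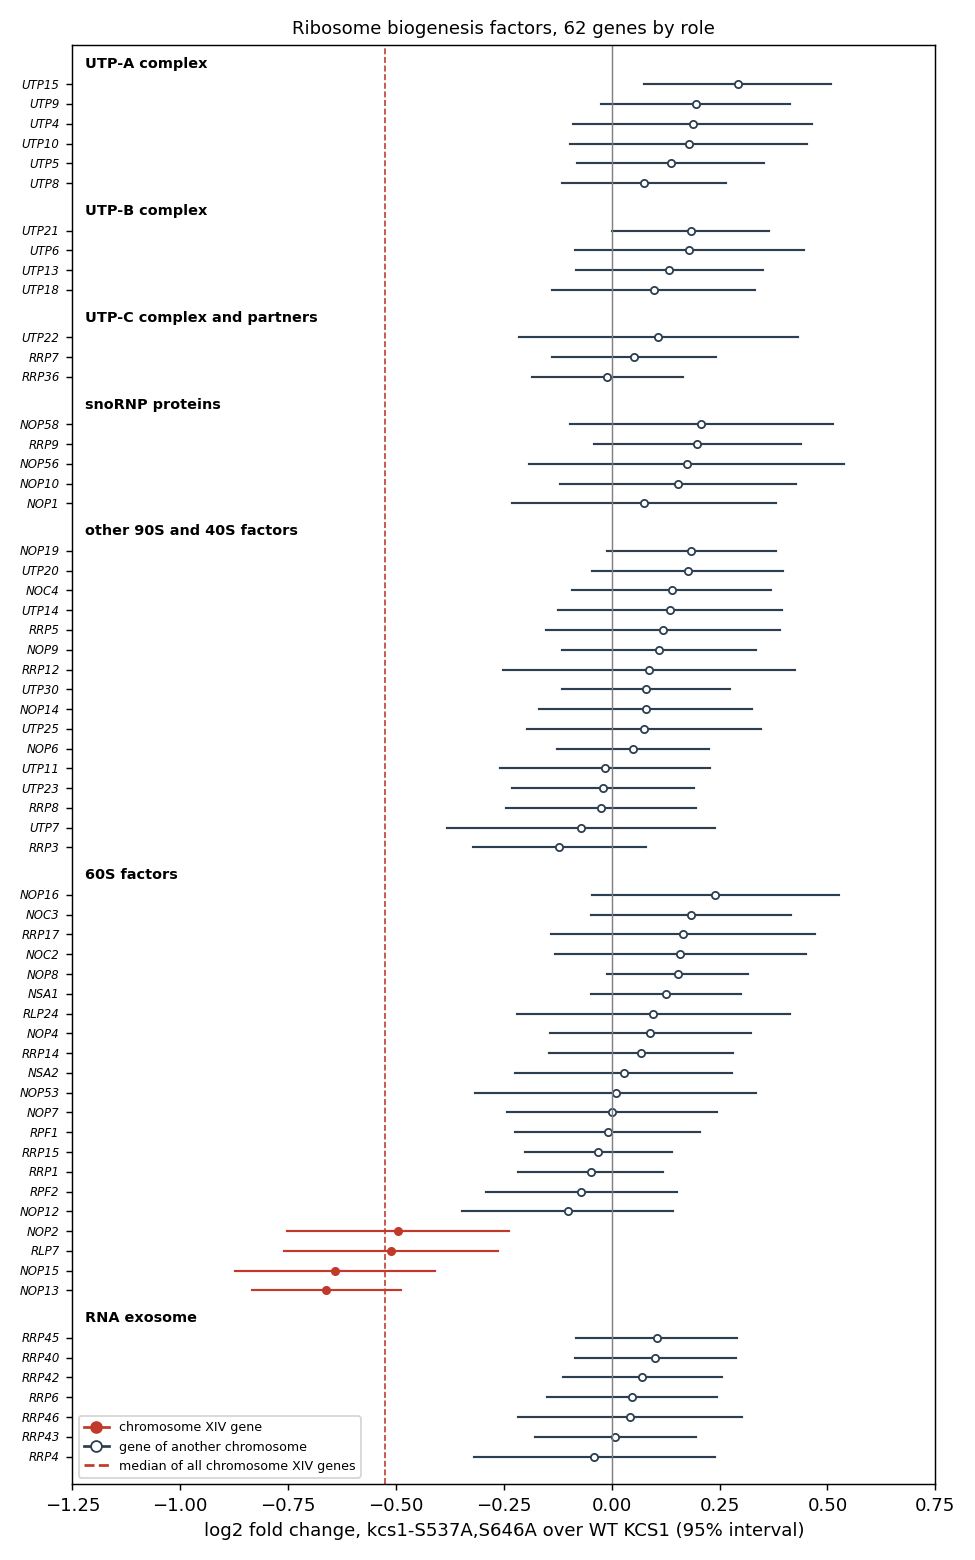
Log2 fold change (mutant over WT, horizontal axis) with its 95% interval for each of the 62 factors, grouped by role; filled points have an adjusted *p*-value under 0.05, red marks chromosome XIV and the dashed line is the median of all genes of that chromosome. The 4 filled points are the chromosome XIV genes, and the other 58 lie between -0.12 and 0.29.

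Of the UTP-A complex, which binds the leading spacer of the precursor first, the 6 subunits in the set were all above 0. Their median was 0.18 on the log2 scale (0.11 with library totals), from 0.074 for *UTP8* to 0.29 for *UTP15*, and none was called. This median was 0.126, 0.266 and 0.135 without mutant replicate 1, 2 or 3. Their median difference from the WT mean was 0.27, -0.0073 and 0.24 in mutant replicates 1, 2 and 3. *UTP15* (chromosome XIII, plus strand, 454015 to 455556) had 177.9, 143.1 and 161.2 CPM in the mutant and 132.7, 127.3 and 133.8 CPM in WT. All mutant samples were above all WT samples, by 0.29 ± 0.094 on the log2 scale (unadjusted *p* = 0.015, adjusted *p* = 0.13 from edgeR). It had the smallest adjusted *p*-value of the 58 factors outside chromosome XIV. *UTP9* was at 0.19, with 296.4, 251.5 and 295.5 CPM in the mutant against 251.0, 236.6 and 249.4 CPM in WT. *UTP10*, the largest subunit, had 829.0, 645.5 and 753.6 CPM in the mutant and 635.7, 633.8 and 698.7 CPM in WT, so that mutant replicate 2 fell within the WT range. *UTP5* had the highest level per length of the complex, at 239.5 CPM per kilobase in the mutant and 217.9 in WT, and a log2 fold change of 0.14.

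The UTP-B complex, which joins next and brings in the U3 snoRNP, gave a similar picture. Its 4 genes in the set had a median of 0.16, all were above 0, and none was called. With library totals this median was 0.088, and it was 0.10 without mutant replicate 3. Their median difference from the WT mean was 0.24, -0.043 and 0.18 in mutant replicates 1, 2 and 3. *UTP21* had 241.6, 226.5 and 230.1 CPM in the mutant against 200.3, 200.7 and 214.0 CPM in WT, a log2 fold change of 0.18 (unadjusted *p* = 0.049, adjusted *p* = 0.25 from edgeR). *UTP13*, the most abundant of these 4 per length, was at 0.13. *UTP15* and *UTP21* were the only factors outside chromosome XIV with an unadjusted *p*-value under 0.05, which 8.98% of all genes outside chromosomes XIV and VI reached in this direction and 6.87% in the other. In the group of *UTP22* and its partners *RRP7* and *RRP36*, the median was 0.051, or -0.014 with library totals, -0.014 without mutant replicate 1, 0.099 without mutant replicate 2, -0.0014 without mutant replicate 3 and from 0.019 to 0.085 without a WT sample. *UTP22* had 263.0, 181.1 and 237.8 CPM in the mutant and 199.7, 205.2 and 227.8 CPM in WT, so that the mutant values surrounded those of WT.

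Of the snoRNP genes, *NOP1* and *NOP10* had the highest levels per length of all 62 factors. *NOP58*, *NOP56* and *RRP9* ranked 10, 12 and 60. *NOP1*, which encodes the 2′-O-methyltransferase fibrillarin, was first per length, at 1167 CPM per kilobase in the mutant and 1108 in WT. *NOP10*, a core protein of the snoRNPs that guide pseudouridine formation, followed with 1191 in the mutant and 1070 in WT. The order of this pair varied between samples within each strain. *RLP7* was next in WT, at 794.7 CPM per kilobase, but was at 557.6 in the mutant, below *RLP24* at 687.7. For the 5 snoRNP genes the median was 0.17 on the log2 scale, all above 0 and none called, but it was 0.073 with 4 above 0 without mutant replicate 1 and 0.099 with library totals. *NOP1* had 1343, 985.5 and 1117 CPM in the mutant and 1127, 1057 and 1088 CPM in WT, and its log2 fold change of 0.075 was -0.056 without mutant replicate 1. *NOP58*, whose product forms the core of the methylation guides with Nop1 and Nop56, had 642.6, 481.1 and 644.6 CPM in the mutant against 499.8, 492.0 and 539.5 CPM in WT. Mutant replicate 2 was thus below every WT sample while the other mutant samples were above them, and the log2 fold change was 0.21 (adjusted *p* = 0.43 from edgeR). *NOP56* had the same arrangement, with 564.1, 370.6 and 526.2 CPM in the mutant and 412.1, 419.9 and 463.0 CPM in WT. *RRP9*, specific to the U3 snoRNP, was at 0.20, with 141.7, 110.7 and 113.3 CPM in the mutant and 105.0, 107.2 and 106.5 CPM in WT. Of the length of *NOP58*, 16.5% overlaps another annotated gene on the same strand, which received from 440 to 884 counts in a sample. *NOP56* (21.5%) and *RRP9* (27.8%) overlap genes on the other strand with from 52 to 94 and from 1 to 4 counts.

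The 16 other factors of the 90S particle and the small subunit centred on 0.079 (median, log2 scale), with 11 above 0. This median was 0.037 without mutant replicate 1, 0.16 without mutant replicate 2 (15 above 0), 0.0093 without mutant replicate 3, and from 0.053 to 0.12 without a WT sample. With library totals it was 0.013. *NOP6*, an early factor of the small subunit, was the most abundant per length, with 348.0 CPM per kilobase in the mutant and 336.2 in WT. *NOP19*, a component of the 90S particle, was the highest in fold change at 0.18 (adjusted *p* = 0.28 from edgeR), with 101.4, 85.4 and 92.9 CPM in the mutant against 81.2, 79.4 and 85.5 CPM in WT. The helicase gene *RRP3* was the lowest of all factors outside chromosome XIV, at -0.12 (adjusted *p* = 0.48). *UTP20*, a large scaffold protein, had 620.1, 538.5 and 554.1 CPM in the mutant against 508.5, 491.1 and 516.4 CPM in WT, without overlap (0.18, adjusted *p* = 0.36). *RRP5*, which acts on both subunits, had 703.9, 549.6 and 634.8 CPM in the mutant against 574.0, 548.2 and 616.6 CPM in WT. *RRP12*, an export factor, had 663.1, 480.4 and 666.3 CPM in the mutant against 540.7, 538.2 and 625.6 CPM in WT. In *RRP5* and *RRP12* the groups overlapped, and mutant replicate 2 was the lowest mutant sample. *RRP3* had 203.2, 189.1 and 217.4 CPM in the mutant and 228.0, 210.8 and 224.3 CPM in WT, which overlap.

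The 7 exosome genes of the set had log2 fold changes from -0.040 to 0.10, with a median of 0.047. The median was -0.015 with library totals, 0.011 without mutant replicate 1, 0.074 without mutant replicate 2, 0.089 without mutant replicate 3 and from 0.023 to 0.073 without a WT sample. *RRP4*, a subunit of the cap that binds RNA, had the highest level per length, 205.5 CPM per kilobase in the mutant and 211.3 in WT. *RRP45*, a subunit of the ring, had 86.9, 77.5 and 76.7 CPM in the mutant against 77.9, 74.8 and 71.5 CPM in WT, a log2 fold change of 0.10 (adjusted *p* = 0.52 from edgeR). For *RRP6*, the nuclear exonuclease of the complex, it was 0.047, with 262.6, 274.7 and 289.0 CPM in the mutant against 262.2, 257.5 and 280.0 CPM in WT. *RRP6* thus differed from most factors in that mutant replicate 1 was its lowest mutant sample.

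Outside chromosome XIV, the median log2 fold change was 0.093 over the 58 factors, against 0.031 over the 5545 genes outside chromosomes XIV and VI and 0.015 over all genes tested. The log2 fold change was above 0 for 46 of the 58, and for 57.5% of the genes outside these chromosomes. In 8 of them, all mutant samples lay above all WT samples (13.8%), where 12.9% of the genes outside these chromosomes did so, and in none did all mutant samples lie below WT, where 9.9% did so. The 95% intervals of the 58 log2 fold changes ran no lower than -0.38 and no higher than 0.54, a ratio of 0.768 and 1.45 of mutant over WT. Of the 58 intervals, 56 included 0, and the standard errors were between 0.070 and 0.16. In simulated data of the same depth, each gene had an equal spread in both strains and varied independently of the others. There the test recovered 43 of 100 genes changed by 0.5 on the log2 scale and 88 of 100 changed by 1. The real spread was larger in the mutant and the factors moved together between samples, so these shares may not hold for the factors.

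As a median over the 58 outside chromosome XIV, the factors differed more among the mutant samples than between the strains. The median log2 difference of the 58 from the WT mean was 0.21, -0.067 and 0.098 in mutant replicates 1, 2 and 3. In the WT replicates it was -0.013, -0.026 and 0.018. Over the 5545 genes outside chromosomes XIV and VI, the median was 0.025, 0.020 and 0.026 in mutant replicates 1, 2 and 3. Mutant replicate 2 was the lowest of the mutant samples for 48 of the 58 factors, and mutant replicate 1 the highest for 39. In mutant replicate 1, 49 of the 58 were above every WT sample and 1 was below every WT sample. In mutant replicate 2, 11 were above and 31 below, and 39 were below the WT mean. The same counts were not made over all genes, so they lack a background to be read against. The medians and counts depend on the TMM factors, which were 0.933, 1.04 and 0.962 in mutant replicates 1, 2 and 3 and from 1.01 to 1.04 in WT. As a share of raw counts, all 62 factors made up 1.82%, 1.66% and 1.76% in these mutant replicates. In WT the share was from 1.79% to 1.83%, so mutant replicate 1 lay within the WT range by this measure. The coefficient of variation had a median of 10.3% over the 62 factors in the mutant and 3.83% in WT, and was larger in the mutant for 59 of them. Over all genes tested, the medians were 11.4% in the mutant and 5.82% in WT, and the coefficient was larger in the mutant for 4781 of 6083 genes.

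**Figure D4:**
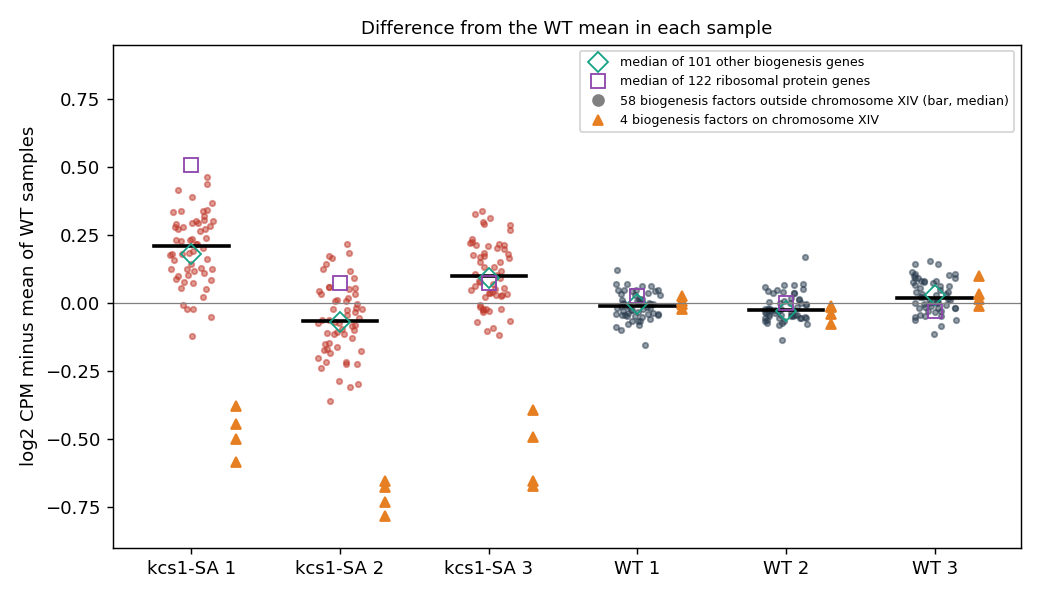
Log2 CPM minus the mean of the WT samples (vertical axis) in each of the 3 mutant (kcs1-SA) and 3 WT samples, with a point for each of the 58 factors outside chromosome XIV, a bar for their median and triangles for the 4 on chromosome XIV; open diamonds and squares are medians of 101 other biogenesis genes and 122 ribosomal protein genes. The factors and the other biogenesis genes are highest in mutant replicate 1 and lowest in mutant replicate 2, whereas the ribosomal protein genes stand apart in mutant replicate 1.

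The counts for the set depended on these samples. Without mutant replicate 2, the median of the 58 factors was 0.15, 53 were above 0, and *UTP15* (log2 fold change 0.37, adjusted *p* = 0.037 from edgeR) and *UTP6* (0.30, adjusted *p* = 0.048) were called higher. Without mutant replicate 1, the median was 0.044 and 37 were above 0. With library totals in place of TMM it was 0.023, also with 37 above 0. Mutant replicate 2 also had the highest transcript levels of *KCS1* and of the plasmid marker *URA3*. *KCS1* had 272.2, 796.7 and 347.4 CPM in mutant replicates 1, 2 and 3 and 366.7, 309.1 and 340.6 CPM in WT, and *URA3* had 1649, 4741 and 2156 CPM in the mutant and 2062, 1704 and 1570 CPM in WT. Mutant replicate 1 is the sample in which chromosome VI genes were lower. The part of either in the levels of the factors was not tested.

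On chromosome XIV, after subtraction of the chromosome's median in each sample, their median was 0.051, -0.15 and -0.040 in mutant replicates 1, 2 and 3, and between -0.019 and 0.021 in WT. *RLP7* was at 0.15, -0.12 and 0.041 in the mutant, and *NOP2* at 0.078, -0.10 and 0.14. Mutant replicate 2 was the lowest mutant sample for all 4, and mutant replicate 1 the highest for all but *NOP2*.

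A list of other genes of ribosome biogenesis was compared. Of its 116 genes tested, 7 were called lower (6.03%, against 4.67% of all genes tested) and none higher. All 7 are among the 13 of the list on chromosome XIV, or 53.8% of them, against 57.2% of all genes tested there. The 7 are *ESF2*, *IMP4*, *KRI1* and *RIO2*, whose products act on the 90S particle or the small subunit, *CSL4*, an exosome subunit, and the large-subunit factors *IPI3* and *DBP6*, with log2 fold changes from -0.63 to -0.42. Of the 13, 12 were below 0 and 1 was above it, at 0.17. Outside chromosomes XIV and VI, the 101 genes had a median of 0.067 (over all 116 genes it was 0.062, and -0.0070 with library totals), with 79 above 0 and none called. Their medians in mutant replicates 1, 2 and 3 were 0.18, -0.070 and 0.093, close to those of the 58 factors. *PWP2* and *DIP2*, the UTP-B subunits outside the naming rule, were at 0.26 and 0.19 (adjusted *p* = 0.18 and 0.24 from edgeR).

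The 122 ribosomal protein genes outside chromosomes XIV and VI were at 0.51, 0.073 and 0.075 in mutant replicates 1, 2 and 3. Their level was thus above WT in mutant replicate 2, where the biogenesis factors were below it, and mutant replicate 1 stood apart from the other mutant samples. Their median was 0.23 with all samples and 0.070 without mutant replicate 1, and none of the 122 was called. *RPL18B*, on chromosome XIV, was the only ribosomal protein gene called, lower at 204.9, 198.7 and 188.0 CPM in the mutant against 356.6, 347.2 and 313.5 CPM in WT (log2 fold change -0.78, adjusted *p* = 0.0041 from edgeR). A test of the difference between these lists and the factors was not made.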

How the data were processed

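RNA was measured in 6 samples, 3 per strain. Per the labels and the study's methods, poly(A) libraries were sequenced as paired reads, cleaned of adapters, aligned by HISAT2 2.0.5 and assigned to genes by featureCounts 1.5.0-p3. The authors deposited the resulting counts without normalization. Deposited FPKM tables were not used. The strand setting is not given in the sources used here. All 62 genes had the coordinates of RefSeq R64, with a start and a stop codon at their ends.

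The fits used edgeR 4.0.16 in R 4.3.3. filterByExpr with a minimum of 10 counts kept 6083 genes, TMM gave the scaling, and mutant was set against WT by quasi-likelihood (glmQLFit, then glmQLFTest, 2-sided, Benjamini-Hochberg over all genes tested, threshold 0.05). Standard errors were derived from each gene's estimate and its F statistic. Values per sample are CPM over gene length in kilobases where genes are compared. The biological coefficient of variation was 0.129. In simulated data the test made 7 false calls among 6083 genes.

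The samples are separate colonies of a strain, so *p*-values measure the spread between colonies. No WT or mutant pair of replicates agreed within sampling noise, so all were counted. The factors and lists were chosen with earlier results of these data known. Genes named are those called, the 5 highest and 5 lowest log2 fold changes, per role group the gene with the highest level per length and the smallest *p*-value, all genes on chromosome XIV, and genes called in the other lists. *NOP7*, *NOP12*, *UTP6*, *UTP8*, *UTP10*, *UTP20*, *NOP8*, *NOP53*, *NOP56*, *NSA1*, *RRP5*, *RRP6*, *RRP12*, *PWP2*, *DIP2*, *STB3*, *RRP17*, *RLP24*, *NOP10*, *KCS1* and *URA3* were named after their values were seen. Alternatives were other size factors, filters and tools (DESeq2 1.42.0, limma-voom in limma 3.58.1), a replicate block, each sample left out, chromosomes XIV and VI removed or given an offset, and unadjusted *p*-values.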

Additional observations from a re-analysis of the deposited data

How the results depend on the processing

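The median log2 fold change of the 62 factors was between 0.015 (library totals) and 0.13 (without mutant replicate 2), and that of the 58 outside chromosome XIV between 0.023 and 0.15, both smaller shifts than the spread between mutant samples. For the other biogenesis genes the median was between -0.0070 (library totals) and 0.12. The cause of the changes listed here was not tested unless stated.

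Genes called over the whole table were 344, against 588 with DESeq2, 16 without chromosomes XIV and VI, 19 with an offset for them and 1224 at an unadjusted *p*-value, and from 84 to 481 with a sample left out. Factors called were 4, against 2 with a replicate block, 0 without chromosomes XIV and VI (where the 4 genes were removed), 0 with the offset, 6 at an unadjusted *p*-value and from 1 to 6 with a sample left out. Outside chromosome XIV, 2 were called at an unadjusted *p*-value and from 0 to 2 with a sample left out, against 0 in edgeR and 0 with DESeq2. Other biogenesis genes called were 7, against 0 without the chromosomes, 0 with the offset, 16 at an unadjusted *p*-value and from 1 to 9 with a sample left out.

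*RLP7* and *NOP2* reversed with the offset (0.024 and 0.040). Small values near 0 reversed with library totals for *NOP6* (-0.015) and *RRP7* (-0.014). With a sample left out, *RRP4* ranged from -0.12 to 0.074, *RRP7* from -0.0014 to 0.099, *NOP1* from -0.056 to 0.17 and *UTP22* from -0.014 to 0.24.

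The labels link replicates of the strains by a number alone, and whether same-numbered cultures were handled together is not given. Same-numbered samples correlated in their deviations at -0.15, 0.029 and 0.39. Mutant replicate 1 correlated best with WT replicate 2, at 0.20, and mutant replicate 2 with WT replicate 1, at 0.29. With the replicate block, *RLP7* and *NOP2* had adjusted *p*-values of 0.051 and 0.050 from edgeR.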

Other observations

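Of the 8 genes for RNA polymerase I and its initiation factor, which transcribe the ribosomal RNA precursor, *RPA49* was called lower, at 364.0 ± 47.3 CPM in the mutant and 535.5 ± 18.6 CPM in WT (SD, n = 3 each; adjusted *p* = 0.032 from edgeR). It lies on chromosome XIV. The other 7 had a median log2 fold change of 0.10 and none was called. Among 5 regulators of biogenesis genes, none was called. *STB3*, which encodes a repressor that binds RRPE in yeast, had 68.1, 77.9 and 80.6 CPM in the mutant and 87.7, 85.2 and 90.6 CPM in WT, a log2 fold change of -0.22 (unadjusted *p* = 0.033, adjusted *p* = 0.21 from edgeR). Of the genes outside chromosomes XIV and VI, 6.87% were lower at an unadjusted *p*-value under 0.05 in the same test. The other regulators had log2 fold changes from -0.17 to 0.097. A link between *STB3* and the levels of the factors was not tested.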
